A study of Populus tomentosa with 4 samples.

Results

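The microRNA family miR398 was followed in the poplar Populus tomentosa, in whose shoot tips and surrounding leaves small RNA had been sequenced to list the microRNAs that differ between the 2 tissues. Its members were chosen by name as every listed microRNA called miR398 plus a letter, which gave ptc-miR398a, ptc-miR398b, ptc-miR398c-3p and ptc-miR398c-5p, 4 of 193 listed names and 3 of 107 listed mature sequences. The prefix ptc, for Populus trichocarpa, is left off below. Shoot tips, which the labels also name SAM, and leaves came from healthy 20-year-old trees outdoors; both tissues shared this origin, and no treatment or genotype beyond the species is labelled. Each tissue had 2 libraries, and nothing in the labels says whether these came from separate trees. No messenger RNA was measured, so the tissues could not be checked against marker genes. The deposited table gave 1 value per tissue, here called signal, a read abundance that the authors normalized over both libraries.

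MicroRNAs are short RNAs that guide an Argonaute protein to matching transcripts, which are then cut or kept from translation. In Arabidopsis, miR398 is known for targeting transcripts of copper/zinc superoxide dismutases, enzymes that remove superoxide with copper at the active site, and of the chaperone that loads that copper. It is made when copper is scarce, together with miR397 and miR408, under a squamosa promoter-binding-like transcription factor, and so lowers the demand for copper in dispensable proteins. Leaves are a main place of copper use, since plastocyanin of photosynthetic electron transport holds copper.

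The mature sequences are shown first because 2 names of the family cannot be told apart by them. They are given 5′ to 3′ as the deposited table has them, with the seed, bases 2 to 8, in capitals.
miR398c-3p: uGUGUUCUcaggucgccccug
miR398b: uGUGUUCUcaggucgccccug
miR398a: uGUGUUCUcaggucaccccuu
miR398c-5p: gGAGCGACcugaaaucacaug

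All 4 were 21 nt long. MiR398b and miR398c-3p had the same sequence. MiR398a had their seed and differed from them at 2 bases outside it, G15A and G21U, counted from 1 at the 5′ end with the base of miR398b first. The seed GUGUUCU occurred in 0 other listed sequences, and so did the seed GAGCGAC of miR398c-5p. The table does not state how reads that match several names were assigned.

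The 2 arms of miR398c are shown again as RNAduplex paired them, with the paired bases in capitals, because the 5p arm is the strand that leaves the duplex.
miR398c-5p: GGaGCGACCUGAaauCACAug
miR398c-3p: UGUGuucUCAGGUCGCcCCug

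The arms formed 15 pairs, 0 of them between G and U, at a computed energy of -24.8 kcal/mol. Pairing ran over positions 1 to 19 of both arms, and the last 2 bases of each stood free at its 3′ end, the form that Dicer-like enzymes leave. Of the 7 seed bases of the 3p arm, 4 were paired.

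All 4 names were lower in shoot tips than in leaves. The signal of miR398c-3p in the authors' deposited table was 77.4 for shoot tips, against 19229 for leaves, and that of miR398b was 77.4, against 19224. The authors' deposited table puts the log2 fold change, shoot tips over leaves throughout, at -7.93 for both names with an FDR of 1.05e-115 (FDR being a p-value adjusted for the number of names tested). These were the lowest and second lowest log2 fold changes listed among the 193 names. The 42 names at 0 in shoot tips have fold changes that rest on an offset the table does not state, so the order against them is not settled. The sequence they share held rank 35 by level among the 107 sequences in shoot tips and rank 4 in leaves.

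MiR398a, the family's second 3p-type sequence by its seed, was far less abundant in both tissues, with a signal of 3.33 in shoot tips, against 441 in leaves. The authors' deposited table gives it a log2 fold change of -6.15 at an FDR of 0.00156. It held rank 80 in shoot tips and rank 23 in leaves. MiR398c-5p, the opposite arm, was the least abundant, at 0.476 in shoot tips, against 65.9 in leaves, and the authors' deposited table has a log2 fold change of -6.65 for it at an FDR of 2.22e-06. As ratios of the 2 signals, miR398c-3p was 248-fold, miR398a 132-fold and miR398c-5p 138-fold lower in shoot tips. The counting intervals of these folds (exact Poisson 95% limits on the shoot tip reads described below, with leaves held fixed) ran from 214 to 290 for miR398c-3p, from 64.3 to 329 for miR398a and from 24.8 to 5467 for miR398c-5p. The interval of miR398c-5p includes the fold of miR398c-3p, so a difference between the 2 arms was not detectable at this depth. For miR398a the answer depends on how reads are recovered. Its interval includes 248 under 2 of the 9 ways described below, the one used among them. It lies below 248 under the other 7, with upper limits down to 213.9. Among these, 3 ways do not make every count of a library a multiple of 2 or 3. The rest do, which raises the reads and narrows the interval. The fold of 248 has a counting error of its own. Where the upper limit of miR398a was 242.2, the 2 intervals overlapped, since that of miR398c-3p then began at 220.8 or 223.6. The share of miR398a among 3p-type reads, given below, puts the same question to both counts. Its interval lay above the leaf share under 4 of the 9 ways.

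**Figure D1:**
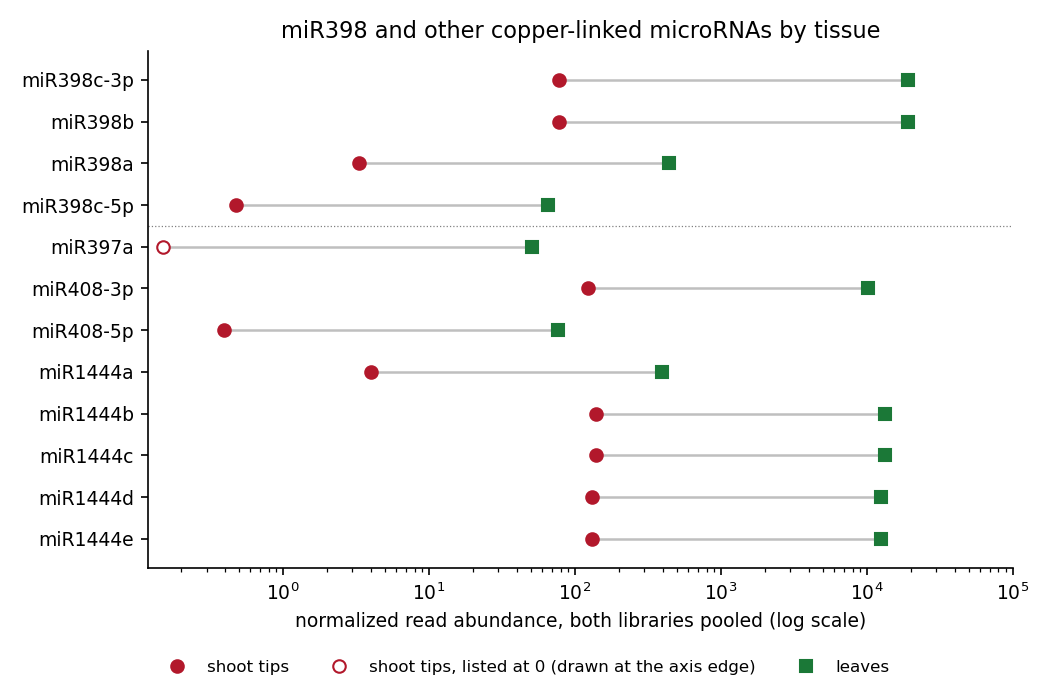
Signals of the miR398 names (above the dotted line) and of the other copper-linked names (below it) in shoot tips (red circles) and leaves (green squares), on a log axis, with 1 pooled value per tissue and no error bar. Every shoot tip value lies far below its leaf value, with miR398c-3p at 77.4 in shoot tips and 19229 in leaves.

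Of the 4 members, 4 were called lower in shoot tips at the authors' FDR below 0.05, against 62.2% of all listed names and 57.9% when each sequence is counted once. At an FDR below 0.01 the 4 were still called, against 45.6% of all listed names. The table lists called names alone, so these shares describe direction among microRNAs that had already passed the threshold. The median log2 fold change was -7.29 over the 4 names and -6.65 over the 3 sequences, and it was -4.46 over all 120 lower names. A log2 fold change below -6 was found for 23 names, several of which share a sequence. That limit was not planned, and it falls between miR398a, the last of the 23 at -6.15, and the next value of -5.74. The make-up of the 23 therefore depends on where the limit was set. Of the 23 names, 12 were known microRNAs, all from miR398, miR397, miR408 and miR1444, and 11 were names that carry only a running number. Fewer cells that make miR398 and less miR398 per cell cannot be told apart in these tissue samples.

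**Figure D2:**
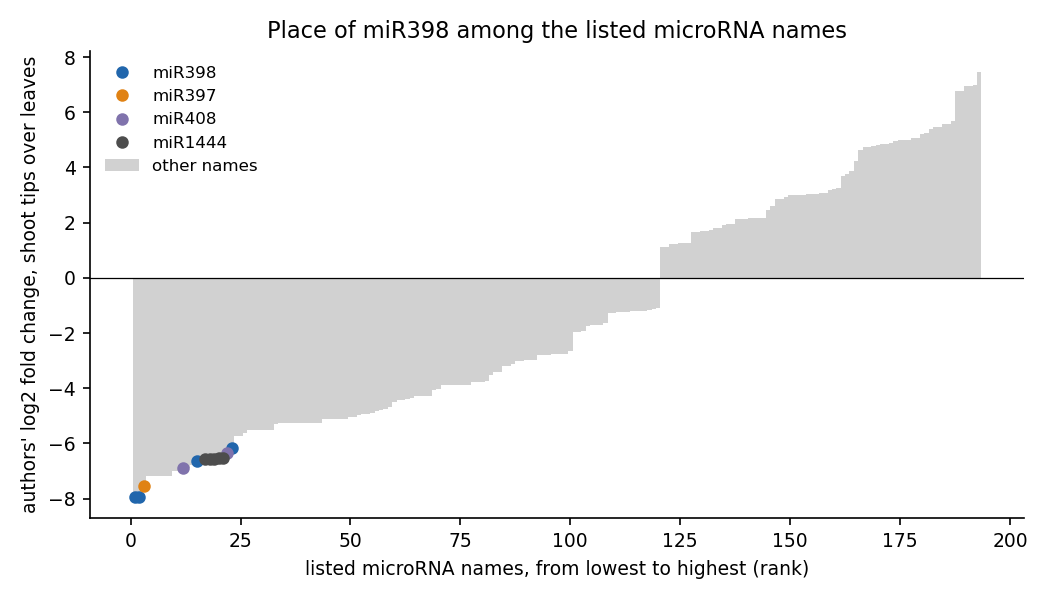
The authors' log2 fold changes (shoot tips over leaves) for all 193 listed names, ranked from lowest to highest, as grey bars that start at 0, with the names of 4 families as coloured points. MiR398c-3p and miR398b stand at ranks 1 and 2, miR398c-5p at rank 15 and miR398a at rank 23.

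The reads of the 2 libraries behind a signal could be recovered where the signal was low, because a signal is then a sum of whole multiples of 2 fixed steps. The libraries are called A and B by the larger and the smaller value of 1 read, 0.952 and 0.787 in shoot tips, and 1.33 and 0.882 in leaves; which labelled replicate each is remains unknown, and A and B pair nothing between tissues. A library value below takes the signal as the mean of both libraries. All intervals and limits on these reads cover counting error only.

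The sequence of miR398c-3p and miR398b had 104 reads in shoot tip library A, a value of 99.0, and 71 reads in library B, a value of 55.9. Library A was thus 1.77-fold higher. The same library was higher for 40 of the 42 known sequences with reads in both. Over the 42 the median was 1.61-fold, and the member lay near it. All 42 had been called different between the tissues, so they do not give the difference between whole libraries. Against the leaf signal, miR398c-3p was 194-fold lower in shoot tip library A and 344-fold lower in library B.

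MiR398a had 7 reads in shoot tip library A, a value of 6.66, and 0 in library B, against 346 and 479 reads in leaf libraries A and B, values of 459.5 and 422.7. Both leaf libraries stood far above both shoot tip libraries, and the leaf libraries were close to each other (1.09-fold). MiR398a was 66.2-fold lower in shoot tip library A than the leaf signal. With 0 reads in library B, it was at least 187-fold lower there, taking 3 reads in that library as the floor.

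MiR398c-5p had 1 read in shoot tip library A and 0 in library B, against 58 and 62 reads in leaf libraries A and B, values of 77.0 and 54.7. Again no shoot tip library reached a leaf library. The leaf signals of miR398c-3p and miR398b were too high for their libraries to be recovered. More than 1 pair of steps returned the signals, 9 pairs in shoot tips and 12 in leaves, of which the coarsest was used. The shoot tip values of miR398c-3p were the same under 6 of the 9, and those of miR398a and miR398c-5p under 8 of the 9. The reads behind these values were not the same: over the 9 pairs they ran from 175 to 454 for miR398c-3p, from 7 to 21 for miR398a and from 1 to 3 for miR398c-5p, the used pair giving the fewest and so the widest intervals. Of the 8 other pairs, 5 make every count of a library a multiple of 2 or 3, and 3 do not. In the 5, 1 or both steps of the used pair are divided by 2 or 3, so their equal values are no separate support. Under the 3, miR398c-3p had other values in libraries A and B: 58.0 and 96.8, 33.4 and 121.5, and 132.8 and 22.1. The first of these 3 gave miR398a 7 reads and miR398c-5p 1 read in each library. All reads, single-library folds and zero counts given here are those of the used pair.

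**Figure D3:**
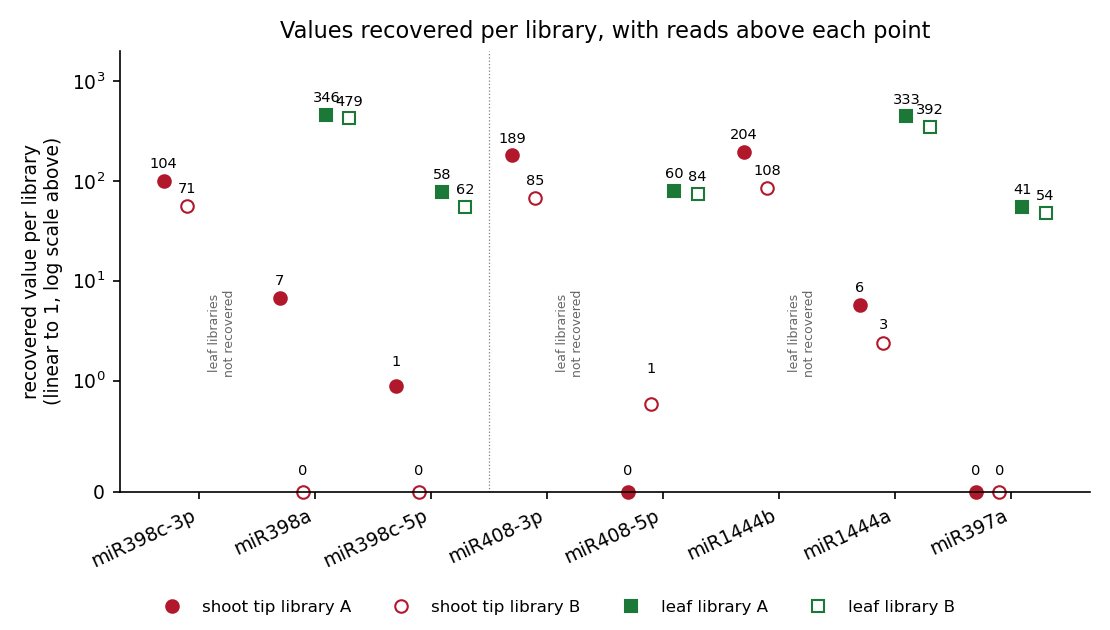
Values recovered per library for the miR398 sequences (left of the dotted line) and for other copper-linked microRNAs, with shoot tip libraries as red circles and leaf libraries as green squares, library A filled and library B open, on an axis that is linear up to 1 and logarithmic above. The number above each point is its reads; miR398a has 7 and 0 in the shoot tip libraries and 346 and 479 in the leaf libraries.

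The authors' log2 fold change and the ratio of their signals differed most for miR398a. Its signals give a log2 ratio of -7.05, while the authors' deposited table has -6.15, a gap of 0.90. This was the largest gap among the 132 names above 0 in both tissues, whose median absolute gap was 0.027. MiR398c-5p had the fifth largest gap at 0.46, from a ratio of -7.11, whereas miR398c-3p had 0.03. Of the 132 names, 9 had 0 reads in exactly 1 library of a tissue, miR398a and miR398c-5p among them, and their gaps ran from 0.126 to 0.90. The gaps of the 93 names with reads recovered in all 4 libraries ran from 0.0013 to 0.176. For the other 30 names the reads of at least 1 library were not recovered, and their gaps ran from 0.0055 to 0.534, with 2 of them at ranks 4 and 6. Whether the uneven reads give rise to the gap was not tested. The FDR of miR398a, 0.00156, was the largest of the 12 copper-linked names in the authors' deposited table. MiR1444a, of similar level with 6 and 3 reads in the shoot tip libraries and 333 and 392 in the leaf libraries, had 9.40e-26 in the authors' deposited table.

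**Figure D4:**
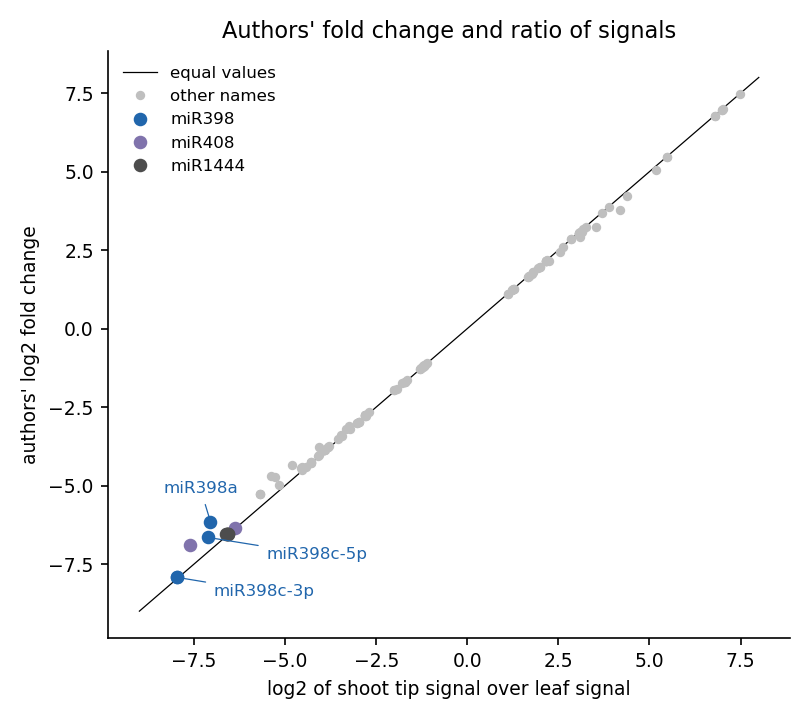
The authors' log2 fold change (vertical) against the log2 ratio of shoot tip signal over leaf signal (horizontal) for the 132 names above 0 in both tissues, with 1 point per name and a line of equal values. MiR398a lies 0.90 above the line, the largest gap, while miR398c-3p lies on it within 0.03.

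The 3p arm of miR398c exceeded the 5p arm in both tissues. Its reads cannot be told apart from those of miR398b, which has the same sequence. The ratios and shares below may thus hold 3p reads of the miR398b precursor and are not the arm use of miR398c alone. The ratio of 3p to 5p signal was 163 in shoot tips and 292 in leaves. Expressed as a share of both arms, the 5p arm made up 0.611% of the signal in shoot tips and 0.341% in leaves. The shoot tip share rests on 1 of 176 reads, 0.568% with an exact (Clopper-Pearson) 95% interval of 0.0144% to 3.12%, which includes the leaf share, as it does under all 9 pairs of steps. A difference in this share between the tissues was therefore not detectable at this depth. The leaf value of the 5p arm rests on more reads, 58 and 62 in the 2 libraries.

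MiR398a was a small part of the 3p-type reads in both tissues. It made up 4.12% of the summed signal of miR398a and miR398b in shoot tips and 2.24% in leaves, so that miR398b exceeded it 23.3-fold in shoot tips and 43.6-fold in leaves. In reads, the share in shoot tips was 7 of 182, 3.85% with an exact 95% interval of 1.56% to 7.76%, which includes the leaf share. Under 4 of the 9 pairs of steps the interval lies above the leaf share, starting at up to 3.25%. Most of these 4 make every count of a library a multiple of 2 or 3, which raises the reads and narrows the interval. The interval of the pair that does not starts at 2.76%. Whether the share differs between the tissues is thus not settled by these reads. By library, with intervals that overlap, library A had 7 of 111 reads, or 6.31% with an interval of 2.57% to 12.6%, and library B had 0 of 71, which allows up to 4.23% by the limit of 3 reads and has an exact interval of 0% to 5.06%. The exact interval of library A lies above the leaf share, and that of library B includes it.

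MiR398b and miR398c-3p had nearly the same signals, as names with 1 sequence. Their signals were equal in shoot tips, and in leaves miR398c-3p exceeded miR398b by 5.09, or 0.0264% of its signal. That difference corresponds to 5 reads in leaf library A and 4 in library B. The 2 names are therefore counted once wherever sequences are counted.

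Other copper-linked families were set beside miR398. MiR397 and miR408 are known to target laccases, multicopper oxidases of the cell wall, and miR1444 of poplars targets polyphenol oxidases. The authors' deposited table has miR408-3p at 123 in shoot tips, against 10242 in leaves, with a log2 fold change of -6.34. MiR1444b and miR1444c stood at 139.6 in shoot tips, against 13289 in leaves, with -6.54 in the authors' deposited table, and miR397a at 0 in shoot tips, against 51.1 in leaves. The fold of miR398c-3p, 248 with an interval from 214, lay above that of miR408-3p, 83.0 with an interval of 73.7 to 93.8, and above that of miR1444b, 95.2 with an interval of 85.2 to 107. These intervals do not overlap, but they hold no spread between libraries. Shoot tip library A exceeded B by 2.69-fold for miR408-3p and by 2.28-fold for miR1444b, in the same direction as the 1.77-fold of miR398c-3p. By the authors' log2 fold change, the name of another family nearest to miR398c-3p was miR397a at -7.54, followed by 6 numbered names with 1 sequence of 24 nt at -7.18, all listed at 0 in shoot tips.

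The table paired the family with 286 distinct predicted target loci out of 10305. MiR398a had 122, the sequence of miR398b and miR398c-3p had 114, and miR398c-5p had 104. No expression of these loci was measured, the predictor is not stated, and 49 of the 286 carry no Swiss-Prot description (17.1%, against 20.8% of all loci). Loci have POPTR identifiers, of which 0 of 286 matched the reference gene table of Populus tomentosa, so the table's own descriptions, which name the best-matching protein of any species, are used.

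MiR398a and miR398b differ at 2 bases, and most predicted loci of each were not shared. Other pairs of similar sequences were not compared, so whether such a split is usual for the predictor is not known here. MiR398a and miR398b had 53 loci in common, 43.4% of those of miR398a and 46.5% of those of miR398b. MiR398c-5p shared 1 locus with miR398a (0.96% of its own, 0.82% of those of miR398a) and 0 with miR398b; the shared one was POPTR_0002s13720, described as homeobox-leucine zipper protein HAT3, a transcription factor that acts in leaf polarity in Arabidopsis. No locus was predicted for all 3 sequences. MiR398a and miR398b had 122 and 114 of all 10305 loci, and miR398c-5p had 104. Unrelated lists of these sizes would also share about this few loci, so no separation of the arms' targets is read from the small overlap.

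**Figure D5:**
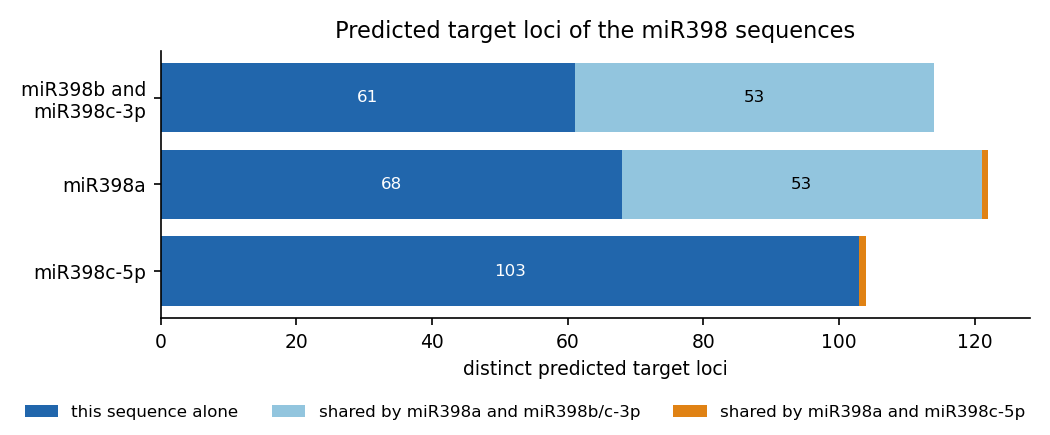
Distinct predicted target loci of each miR398 sequence, split into loci of that sequence alone (dark blue), loci shared by miR398a and the sequence of miR398b and miR398c-3p (light blue) and the 1 locus shared by miR398a and miR398c-5p (orange). The 2 sequences with the same seed share 53 loci, and miR398c-5p has 103 of its own.

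The copper targets were divided between the sequences that differ at 2 bases. Both loci described as the copper chaperone for superoxide dismutase, POPTR_0001s08330 and POPTR_0003s11830, were predicted for miR398b and miR398c-3p and for no other listed microRNA. One copper/zinc superoxide dismutase, POPTR_0011s01280, described as a chloroplast form, was predicted for miR398a alone. For the abundant sequence of miR398b and miR398c-3p, 0 superoxide dismutase loci were listed, and for miR398c-5p 0 loci of any copper class.

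The other 4 copper/zinc superoxide dismutase loci in the table were predicted for other microRNAs. POPTR_0013s05350 and POPTR_0019s05140 were paired with miR159a, miR159b, miR319e, miR319f, miR319g and miR319h, all higher in shoot tips. POPTR_0005s04590 and POPTR_0013s03160 were paired with the numbered microRNA m1472-5p, which was lower in shoot tips. Superoxide dismutases that use iron or manganese in place of copper had 0 loci in the table.

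Across the classes of copper proteins and their regulator the table held 82 loci, and miR398 had 3 of them, or 1.05% of its 286 loci, against 0.796% of all loci in the table. The share was 1.75% for the sequence of miR398b and miR398c-3p and 0.82% for miR398a. It was 18.4% for miR397, where 33 of 179 loci were laccases, 2.93% for miR408 and 4.6% for miR1444. Of the loci of other copper classes, none of the 41 laccases, 13 polyphenol oxidases, 3 blue copper proteins, 4 copper-transporting ATPases and 3 copper transporters was predicted for miR398. Cytochrome c oxidase, of which a subunit is a known miR398 target in Arabidopsis, and plastocyanin had 0 loci in the whole table. The 3 loci described as squamosa promoter-binding-like protein 7, the name that the copper-responsive factor bears in Arabidopsis, were not among those of miR398.

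Among the 53 loci that miR398a and miR398b share were 8 nucleoredoxins. All 7 loci described as probable nucleoredoxin 1, POPTR_0010s06930 to POPTR_0010s07000, and POPTR_0008s17570, described as nucleoredoxin 1-1, were predicted for both sequences. Nucleoredoxins are thioredoxin-related proteins that reduce oxidized partners. They made up 2.8% of the 286 loci, against 0.165% of all loci, where 17 had that name. Identifiers this close may be gene copies that share a site, so they are not independent predictions. The thioredoxin-like 3-1 locus POPTR_0016s05950 was also shared, while 2 of the table's 6 loci of the thioredoxin TTL4 and 3 of its 5 of peptide methionine sulfoxide reductase, which repairs oxidized methionine, were predicted for miR398a alone. These and the following groups were picked after the descriptions had been read. Their counts are out of the loci in the table, which are only those paired with a listed microRNA and not all genes of that name.

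Other loci that miR398a and miR398b share held regulators and receptors. Of 4 zinc finger proteins of the WIP type in the table, 4 were predicted for miR398a and 3 for miR398b. They made up 1.4% of the 286 miR398 loci, against 0.0388% of all loci. Both shared 3 of 29 glutamate receptor loci, all described as glutamate receptor 2.1, 2 of 6 loci of nodulation-signaling pathway 2, a GRAS-type transcription factor named from legumes, and POPTR_0018s06410, described as GLK2, a factor that promotes chloroplast development in Arabidopsis. Of the 54 loci predicted for more than 1 sequence, 9 had no description.

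Other loci were listed for 1 sequence alone. For miR398a these included 3 of 5 loci of 6-phosphogluconate dehydrogenase of the pentose phosphate route (1.05% of the miR398 loci, against 0.0485% of all loci). Also among them were 2 of 2 of cytosolic glutamine synthetase and 2 of 2 of coproporphyrinogen-III oxidase of haem and chlorophyll synthesis (each 0.699%, against 0.0194%). A further one was POPTR_0011s16650, 1 of 2 loci of small RNA 2'-O-methyltransferase, the enzyme that protects plant microRNAs at their 3′ end. For miR398b and miR398c-3p they included 4 of 18 CONSTANS-LIKE or B-box zinc finger factors, which act in light responses, and POPTR_0006s22540, described as SPINDLY, a repressor of gibberellin signalling in Arabidopsis. Class I heat shock proteins had 4 loci in the table, 2 predicted for miR398a and the other 2 for miR398b.

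MiR398c-5p was paired with 5 loci described as 4-coumarate--CoA ligase or as ligase-like, and 1 of trans-cinnamate 4-monooxygenase, out of 13 and 2 in the table. These were 1.75% and 0.35% of the miR398 loci, against 0.126% and 0.0194% of all loci. The ligase and the monooxygenase act early in phenylpropanoid synthesis. What the ligase-like proteins do is not given by their descriptions. MiR398c-5p also had 6 of 110 G-type lectin receptor kinases and 3 of 5 glycerol-3-phosphate transporters. The 6 kinases were 6 of its 104 loci and 2.1% of the 286 loci of all 3 sequences, against 1.07% of all loci. Of the 6, 5 were described as RLK1, some with close identifiers that may be gene copies, so they are not independent predictions. Pentatricopeptide repeat proteins were predicted for all 3 sequences, with 1 locus for miR398a, 2 for miR398b and 5 for miR398c-5p, and so were disease resistance proteins, with 3 for each. Over the 3 sequences together, these 2 families stood near their share in the table. Pentatricopeptide repeat proteins made up 2.8% of the miR398 loci, against 2.9% of all loci, and disease resistance proteins 2.45%, against 2.73%. By sequence the pentatricopeptide repeat loci were uneven, with 1 of 122 for miR398a, 2 of 114 for miR398b and 5 of 104 for miR398c-5p.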

How the data were processed

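Trizol and a kit for plant tissue gave the total RNA, from which Illumina libraries were made, per the labels' protocols. For trimming, aligner, genome build, scaling, test and target predictor, the sources used here give no entry. The authors deposited 1 table. It holds a signal per tissue, a normalized abundance formed by the authors from both libraries, with no stated scale. It also holds the authors' log2 fold change (shoot tips over leaves) and their FDR, an adjusted p-value. The depth of the libraries is not stated.

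The members and lists were chosen with earlier results of these data known. The table gave no value per library, so no test of tissues was run, and the authors' FDR below 0.05 was taken over. Of the family's 457 lines 3 repeated another line, and each locus was counted once. Named loci were the copper classes, matched by description, and loci of more than 1 miR398 sequence; others were chosen after their descriptions were seen.

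Reads were recovered from signals up to 5000, as whole multiples of 2 steps between 0.15 and 1.5, kept within 1.2 times the rounding error when the next best solution lay at least 10 times that error off. They were recovered for 98 of 100 distinct shoot tip signals and 104 of 106 leaf signals. Recovered reads cover called microRNAs alone, so no count test was run on them. Arms were paired with RNAduplex 2.7.2. Python 3.11.15, numpy 2.4.6, scipy 1.17.1, pandas 2.3.3 and matplotlib 3.10.9 were used. Alternatives were a pseudocount of 1, the plain ratio, another total, an FDR below 0.01, a signal of at least 5, sequences in place of names, single libraries and lines in place of loci. The other pairs of steps were added as an alternative after the data were seen.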

Additional observations from a re-analysis of the deposited data

How the results depend on the processing

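Under the alternatives other than the steps, 22 values stayed within the counting interval or within 1.5 times the count, 7 moved further and none changed direction. Another total left out the families miR159 and miR319, whose signals summed to 454232 in shoot tips and 93255 in leaves. It was formed by assuming that all signals of a tissue add up to the same fixed total in both tissues. The size of that fixed total was also assumed, since the scale of the signals is not stated. The result rests on these assumptions. The log2 fold change of every member was then higher by 0.73. For miR398c-3p and miR398b it was -7.19, against -7.93. With single shoot tip libraries under the used pair of steps it ran from -8.43 to -7.60 for both. Leaving out 1 library in turn gave -7.11 to -6.05 for miR398a and -7.34 to -6.11 for miR398c-5p; without shoot tip library A both were at 0 reads and gave no value. Counted as table lines, the copper loci numbered 5 in place of 3, since miR398b and miR398c-3p have the same loci. With a pseudocount of 1, miR398c-5p had -5.50 and miR398a -6.67, which follows from their low shoot tip signals. No paired analysis was possible because each tissue has 1 pooled column without replicate numbers. The planned count model was not run, since it needs a value per library. Under the 8 other pairs of steps, added after the data were seen, the share of miR398a among shoot tip reads ran from 2.77% to 5.20% and that of the 5p arm from 0.405% to 0.777%. The values of miR398a and miR398c-5p in shoot tips rest on 7 reads and 1 read under the steps used.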

Other observations

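Part of the predicted miR398 loci were also paired with other listed microRNAs. Of the 286 loci, 90 (31.5%) were predicted for at least 1 name of another family. For 38 of these all such names were higher in shoot tips, for 36 all were lower, and for 16 names of both directions were listed. The share was 27.9% for miR398a, 27.2% for miR398b and miR398c-3p, and 39.4% for miR398c-5p. Neither these counts nor the next has a matching value over all loci beside it, so none can be called high or low. Of the 286 loci, 7 were shared with miR397, miR408 or miR1444. Among them were POPTR_0016s01980, described as FAR-RED ELONGATED HYPOCOTYL 3, a light-signalling factor in Arabidopsis, predicted for miR398b, miR398c-3p and miR408-5p, and POPTR_0017s06870, a probable histone-lysine N-methyltransferase, predicted for miR398b, miR398c-3p and miR1444a. These 2 were named after their values were seen. Loci with descriptions in the copper classes were in none of these 7.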
